A study of Homo sapiens with 6 samples.

Results

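The integrated stress response and the unfolded protein response were followed through 40 genes, given as a list of gene symbols. No measured value was in the rule that chose them, but earlier results of these data were known when they were chosen. Of the 40, 24 belong to the branch driven by the transcription factor ATF4 and 16 to the branch driven by ATF6 and XBP1. Each symbol matched a single Ensembl identifier among the 61487 genes listed, and all 40 were among the 16591 genes that passed the filter on low counts and were tested. The cells were H2170, an established line of human lung squamous cell carcinoma, kept in serum-containing DMEM. They expressed GFP alone (Control), wild-type ACK1 joined to GFP (WT) or ACK1 with the change named IDRmut joined to GFP (IDRmut), with 2 libraries in each of the 3 groups. ACK1, the product of TNK2, is a cytoplasmic tyrosine kinase. The sources used here do not give the altered residues. IDR usually abbreviates intrinsically disordered region, and the series addresses gene regulation linked to ACK1 condensates. The labels describe both ACK1 arms as overexpression, and the sources used here do not give the share of cells that carry the fusion. Poly-A RNA was counted per gene by the authors, and levels below are CPM, a gene's counts relative to the scaled total of its library.

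Cells enter the integrated stress response when 1 of 4 kinases, each answering a different stress, phosphorylates the initiation factor eIF2. Protein synthesis then falls while the ATF4 message is translated more, so ATF4 protein can rise without a matching rise of its mRNA. ATF4 switches on genes for amino acid import, serine, glycine and sulfur amino acid synthesis, mitochondrial one-carbon metabolism and, through DDIT3 (CHOP), cell death. The unfolded protein response adds the endoplasmic reticulum (ER) sensors ATF6, which is cut to release a transcription factor, and IRE1, which splices XBP1 mRNA. Both raise ER chaperones, disulfide isomerases and the machinery that removes misfolded proteins from the ER. Gene-level counts do not separate spliced from unspliced XBP1 and do not report eIF2 phosphorylation, ATF6 cleavage or protein levels. Squamous lung tumours often express the amino acid transporter SLC7A5 strongly.

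The promoters of the 2 branches are shown first because different short elements mark them. RefSeq promoter windows (GRCh38.p14, 250 bases before to 50 after a listed start) were found for 19 of the 24 ATF4 genes and for all 16 genes of the ATF6 and XBP1 branch. A listed start can lie away from the first base of the gene as positioned below. One window per gene was searched, the first listed, whereas the shares of all promoters cover every window of that length. The C/EBP-ATF response element, searched as TGATGNAA on both strands, occurred in 4 of the 19 windows (CHAC1, ASNS, SLC3A2 and SLC7A1) and in 1 of the 16 (HERPUD1), against 3.62% of all 35116 promoters of that length. The ER stress element, searched on both strands as CCAAT and CCACG with 9 bases of any kind between them, occurred in 5 of the 16 windows and in none of the 19, against 0.0769% of all promoters. ERSE-II (ATTGG and CCACG with 1 base between them, both strands) stood in 3 of the 16, those of HERPUD1, SDF2L1 and HYOU1, against 0.0541%, and the unfolded protein response element TGACGTGG, also searched on both strands, in HYOU1 alone of the members, against 0.729%. In HYOU1 that last match overlaps an ERSE-II match on the opposite strand. A match is a run of letters in this window and was not tested for binding. The 5 genes with an ER stress element are shown with its matches read on the element's own strand, with the fixed letters in capitals:
HSPA5: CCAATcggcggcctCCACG
XBP1: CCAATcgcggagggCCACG
HSP90B1: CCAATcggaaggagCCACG
HSP90B1, nearer to the start: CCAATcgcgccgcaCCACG
CALR: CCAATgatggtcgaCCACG
CRELD2: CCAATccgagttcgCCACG
The C/EBP-ATF matches read TGATGcAA in CHAC1, TGATGtAA in SLC3A2 and TGATGaAA in both ASNS and SLC7A1.

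Whole windows follow for CHAC1 and SLC3A2, which rose in both ACK1 arms, and for HSPA5 and HSP90B1, the main chaperones of the ER lumen, with matches in capitals. They lie at chr15:40953221-40953520 on the plus strand, chr11:62881449-62881748 on the plus strand, chr9:125241294-125241593 on the minus strand and chr12:103930160-103930459 on the plus strand.
CHAC1: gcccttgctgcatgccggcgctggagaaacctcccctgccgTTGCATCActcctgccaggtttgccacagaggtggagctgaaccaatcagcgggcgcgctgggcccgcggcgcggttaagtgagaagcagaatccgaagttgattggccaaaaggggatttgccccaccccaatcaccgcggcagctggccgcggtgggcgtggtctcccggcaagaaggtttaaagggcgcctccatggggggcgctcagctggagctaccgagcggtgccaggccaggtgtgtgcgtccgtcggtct
SLC3A2: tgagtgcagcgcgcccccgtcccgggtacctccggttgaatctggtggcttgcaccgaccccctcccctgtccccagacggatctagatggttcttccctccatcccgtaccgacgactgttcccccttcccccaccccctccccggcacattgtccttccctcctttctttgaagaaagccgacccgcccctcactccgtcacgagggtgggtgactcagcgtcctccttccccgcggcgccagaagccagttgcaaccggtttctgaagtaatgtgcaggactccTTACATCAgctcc
HSPA5: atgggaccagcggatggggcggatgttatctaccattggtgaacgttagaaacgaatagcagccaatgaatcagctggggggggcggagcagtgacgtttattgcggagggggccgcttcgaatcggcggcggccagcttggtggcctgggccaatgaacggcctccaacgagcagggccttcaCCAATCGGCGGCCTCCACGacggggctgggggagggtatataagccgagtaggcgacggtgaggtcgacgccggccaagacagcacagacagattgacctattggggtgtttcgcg
HSP90B1: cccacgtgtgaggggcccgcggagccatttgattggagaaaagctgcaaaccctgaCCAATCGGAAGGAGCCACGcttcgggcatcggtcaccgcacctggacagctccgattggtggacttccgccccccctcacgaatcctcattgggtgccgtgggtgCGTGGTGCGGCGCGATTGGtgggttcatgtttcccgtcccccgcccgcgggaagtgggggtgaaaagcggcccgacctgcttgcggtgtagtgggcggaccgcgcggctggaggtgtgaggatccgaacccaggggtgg
In CHAC1 the element begins 209 bases before the start used for its window and in SLC3A2 at base 38 after it. The HSPA5 element begins 66 bases before that start, and those of HSP90B1 begin 194 and 89 bases before it. The CHAC1, SLC3A2 and HSP90B1 windows lie wholly inside the annotated genes, whose first bases are 40952962, 62856102 and 103930107.

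Library totals lay between 19128111 and 33540998 counts, and WT replicate 2 was the deepest. TNK2, which checks the labels, stood at 41.1 and 43.1 CPM in Control, 3510 and 3608 with WT and 1759 and 1453 with IDRmut, so each difference between WT and IDRmut below was measured together with a 2.22-fold difference in ACK1 transcript. Squamous markers were present (KRT14 at 1422 CPM, SOX2 at 338 and TP63 at 23.5 in Control), but 4 of the 12 epithelial markers (DSC3, PERP, EPCAM and CDH1) stayed under 1 CPM in every library. The summed level of the 12 was 2620 to 2651 CPM in Control, 1282 to 1323 in WT and 1757 to 1889 in IDRmut, most of it KRT14 and S100A2. Against Control the 8 tested did not move as one: 2 rose and 5 fell in WT, and 4 rose and 3 fell in IDRmut. Of all genes, 35% and 31.6% were called. KRT6A was up by 0.66 and 1.76 and TP63 by 0.19 and 0.47. KRT14 was at -1.20 and -0.60, S100A2 at -1.20 and -1.03, and SOX2 at -0.531 and -0.205. KRT17 was at -1.26 in WT and was not called in IDRmut (0.105, adjusted p 0.33). KRT5 was lower in WT (-0.71) and higher in IDRmut (1.07), and DSG3 was up in IDRmut by 0.36. Between the arms all 8 were lower in WT than in IDRmut, beside 12.3% of all genes lower and 14.2% higher. All 7 immune markers stayed under 1 CPM in every library, and of 5 plasma cell markers, a cell type with a strong unfolded protein response, JCHAIN, MZB1 and TNFRSF17 did so too. Of the other 2, SDC1, which epithelia also express, fell from 304 CPM in Control by 0.51 and 0.47, and IGKC, at 0.355 to 1.36 CPM, was called higher in IDRmut (1.46, adjusted p 0.022). The endothelial list was summed at 219 to 225 CPM in Control, 51.1 to 53.1 in WT and 99.2 to 102 in IDRmut, nearly all of it CDH5, while TEK rose from 1.07 CPM by 2.27 and 1.30. KDR, at 7.49 CPM in Control, was at -0.26 in WT (adjusted p 0.13) and was lower in IDRmut (-0.73, adjusted p 0.00066). The fibroblast list was summed at 825 to 846 CPM in Control, 676 to 684 in WT and 865 to 927 in IDRmut, nearly all of it COL1A2, while COL1A1 rose from 0.467 CPM by 1.72 and 1.84. THY1, at 6.63 CPM in Control, was at 0.32 in WT (adjusted p 0.091) and rose in IDRmut by 1.17 (adjusted p 3.5e-06). Mitochondrially encoded transcripts took 4.15% to 4.32% of counts in WT, 4.69% to 5.00% in Control and 5.06% to 5.47% in IDRmut. The part that these shifts have in the results below was not tested, and in bulk libraries fewer cells with a transcript and less transcript per cell cannot be told apart.

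Before any comparison, the 40 genes spanned a wide range of levels. Per kilobase of exon in Control, the most abundant were the ER chaperones CALR (404 CPM per kilobase), HSP90B1 (318) and HSPA5 (202), followed by the disulfide isomerases PDIA4 (165) and PDIA6 (134). The least abundant were CBS, the first enzyme of transsulfuration, at 0.0811, and ASNS, asparagine synthetase and a classic ATF4 target, at 0.349. Together the 24 ATF4 genes made up 1790 and 1800 CPM in the Control libraries, 2259 and 2277 with WT and 2035 and 2090 with IDRmut. The 16 genes of the ATF6 and XBP1 branch summed to 5569 and 5603 CPM in Control, 4905 and 4914 with WT and 5413 and 5497 with IDRmut. The ATF4 sum was therefore higher in both ACK1 arms than in either Control library, while the ER sum was lower in both arms, with IDRmut close to Control.

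**Figure D1:**
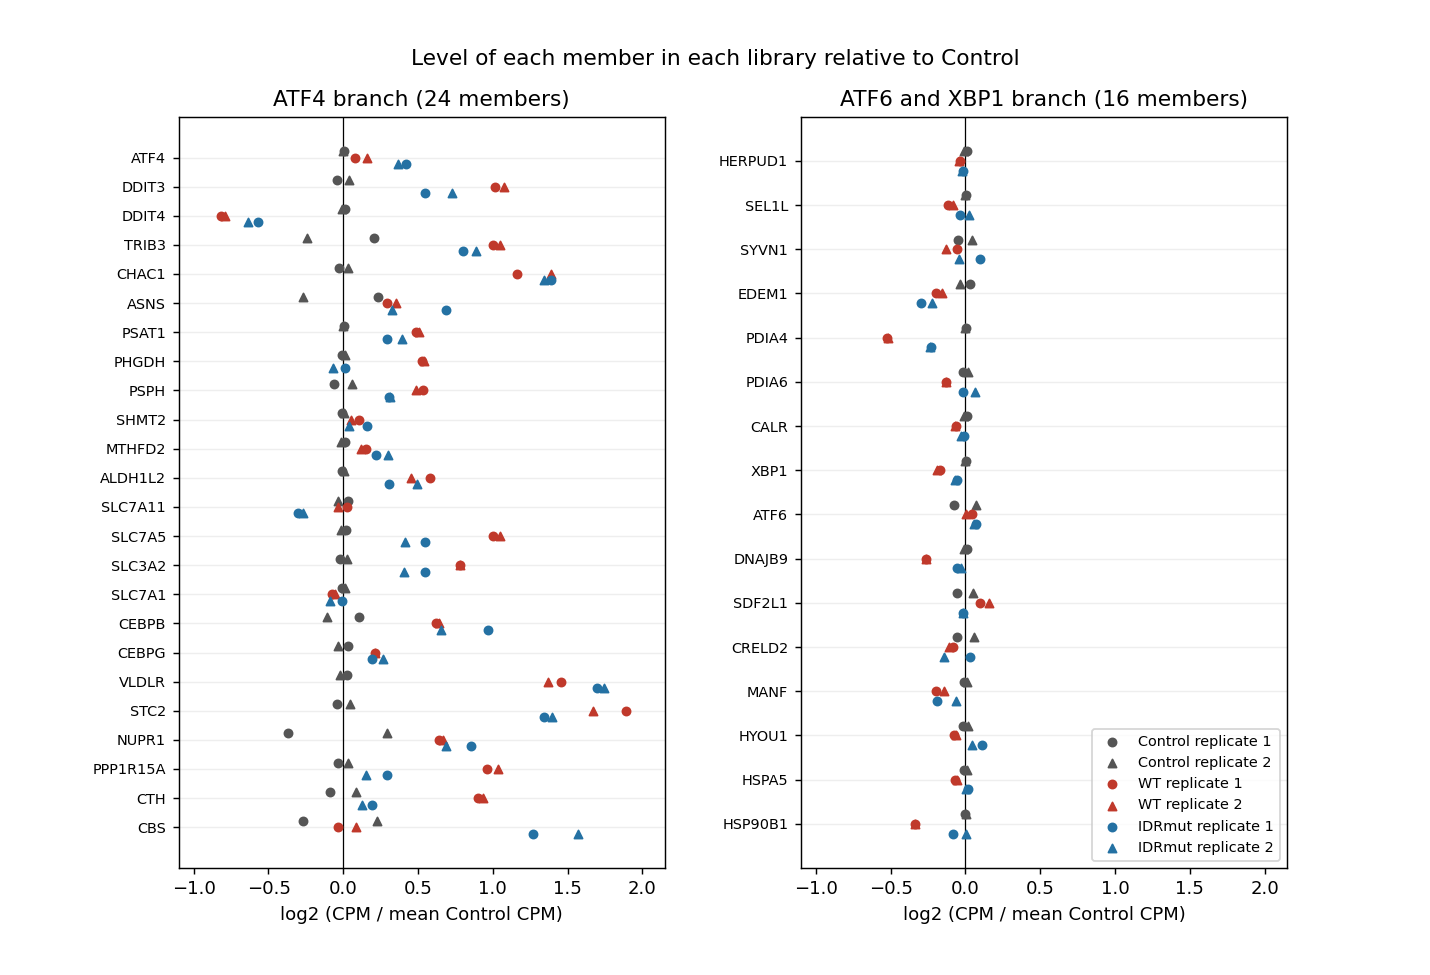
Level of each of the 40 members in each of the 6 libraries, as log2 of its CPM over the mean of the 2 Control libraries (horizontal axis), with the ATF4 branch on the left and the ATF6 and XBP1 branch on the right. Colours are the groups and symbols the replicates; most ATF4 genes lie right of 0 in both ACK1 arms, DDIT4 lies left of 0, and the ER genes lie closer to 0, with PDIA4 in WT the farthest at -0.52.

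The first question is how cells with wild-type ACK1 differ from cells with GFP alone. Most genes of the ATF4 branch were higher in WT. Of the 24, 18 rose, ATF4 itself among them, and 1 fell (16 and 1 by DESeq2), with a median log2 fold change of 0.52. In the background edgeR's quasi-likelihood test called 35% of all 16591 genes, 17.4% higher and 17.6% lower, with a median of 0.00. In the ATF6 and XBP1 branch 7 of 16 fell, with a median of -0.10, and 0 rose, none of them at an unadjusted p under 0.05 and none by DESeq2. The 2 groups did not overlap for 22 of the 24 ATF4 genes and for 15 of the 16 ER genes, against 69.2% of all genes. In IDRmut 17 of the 24 ATF4 genes rose and 2 fell (15 and 2 by DESeq2), with a median of 0.40. Of all genes 31.6% were called, 15.6% higher and 15.9% lower. In the ATF6 and XBP1 branch 2 of 16 fell and 0 rose in IDRmut by edgeR (1 higher at an unadjusted p under 0.05, and 0 by DESeq2), with a median of -0.02. IDRmut and Control did not overlap for 22 of the 24 ATF4 genes and for 7 of the 16 ER genes, against 63.3% of all genes. The comparisons of WT and of IDRmut with Control share the Control libraries, so their values stand side by side and are not independent of each other.

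All 5 transcription factors of the branch were called higher in both arms. ATF4 (chromosome 22, 39519695 to 39522685, GRCh38, plus strand) stood at 175 and 174 CPM in Control, 184 and 195 with WT and 233 and 225 with IDRmut. All 4 ACK1 libraries were above both Control libraries, and IDRmut was above WT. The log2 fold changes were 0.12 ± 0.04 (SE) in WT, with an adjusted p of 0.027, and 0.39 ± 0.04 in IDRmut (adjusted p 1.1e-06). The small WT difference was not called without Control replicate 1 (adjusted p 0.13), without Control replicate 2 (0.15), without WT replicate 2 (0.42, at a log2 fold change of 0.07) or by DESeq2 (0.083). DDIT3, the pro-apoptotic factor CHOP (chromosome 12, 57516588 to 57521737, minus strand), was at 4.46 and 4.73 CPM in Control, 9.29 and 9.67 with WT and 6.72 and 7.58 with IDRmut. The groups did not overlap and DDIT3 rose in both arms, by 1.05 ± 0.12 in WT (adjusted p 2.5e-06) and 0.64 ± 0.13 in IDRmut (adjusted p 0.0011). Other genes, MARS1 (listed as MARS) and MBD6 among them, overlap 39.6% of the DDIT3 exon bases. CEBPB and CEBPG, C/EBP proteins that pair with ATF4 on its elements, also rose in both arms, CEBPB by 0.63 and 0.81 and CEBPG by 0.21 and 0.23 in WT and IDRmut. NUPR1, a small stress-induced chromatin protein, was called in both arms at 0.66 and 0.78. Its Control libraries differed, at 2.38 and 3.76 CPM, and without Control replicate 1 the values were 0.36 (adjusted p 0.18) and 0.47 (0.087), while without Control replicate 2 the WT value was 1.02. DESeq2 did not call it in WT (0.058).

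The feedback and effector genes split. CHAC1, an enzyme that degrades glutathione and answers ATF4 strongly (chromosome 15, 40952962 to 40956519, plus strand), was at 3.14 and 3.28 CPM in Control, 7.19 and 8.38 with WT and 8.38 and 8.13 with IDRmut. Every ACK1 library was more than double either Control library, and the arms overlapped, with log2 fold changes of 1.30 ± 0.14 and 1.36 ± 0.14, each with an adjusted p of 1.1e-06. TRIB3, a pseudokinase that restrains ATF4 and DDIT3, rose by 1.02 with WT and 0.84 with IDRmut. PPP1R15A (GADD34), which directs a phosphatase to eIF2 and so ends the response, stood at 28.1 and 29.4 CPM in Control, 56.0 and 59.0 with WT and 35.2 and 31.9 with IDRmut. WT was about double Control and IDRmut only slightly above it, at 1.01 ± 0.06 (adjusted p 1.2e-09) and 0.22 ± 0.07 (0.019). The IDRmut call for PPP1R15A ended without Control replicate 1 (adjusted p 0.16), Control replicate 2 (0.058) or IDRmut replicate 1 (0.12), and by DESeq2 (0.088). DDIT4 (REDD1), an inhibitor of mTORC1 that hypoxia and glucocorticoids also induce, went the other way. It fell from 158 and 156 CPM in Control to 89.3 and 90.8 in WT and 106 and 101 in IDRmut, a log2 change of -0.80 ± 0.04 and -0.60 ± 0.04 with adjusted p of 1.4e-10 and 8.7e-09. The antisense gene DDIT4-AS1 overlaps 41.2% of the DDIT4 exon bases, and the sources used here give no strand setting.

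Enzymes of amino acid synthesis differed between the arms. The serine pathway runs from PHGDH through PSAT1 to PSPH. PHGDH (chromosome 1, 119648411 to 119744226, plus strand) was at 117 and 118 CPM in Control, 169 and 171 with WT and 118 and 112 with IDRmut. It rose in WT by 0.54 ± 0.04 (adjusted p 1.9e-08), and its IDRmut libraries overlapped Control at -0.03 ± 0.04 (adjusted p 0.66). PSAT1 and PSPH rose in both arms, PSAT1 by 0.49 and 0.34 and PSPH by 0.51 and 0.31. CTH, the transsulfuration enzyme that makes cysteine (chromosome 1, 70411218 to 70439851, plus strand), followed the PHGDH pattern with 10.1 and 11.4 CPM in Control, 20.1 and 20.5 with WT and 12.3 and 11.7 with IDRmut. Its WT libraries were near double those of Control, a rise of 0.92 ± 0.09 (adjusted p 2.5e-07), and its IDRmut difference was 0.16 ± 0.10 (adjusted p 0.23). ASNS, with 1.29 to 2.50 CPM in all libraries, was not called, at 0.32 ± 0.24 in WT and 0.50 ± 0.24 in IDRmut, and another gene overlaps 44.6% of its exon bases.

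CBS, the enzyme upstream of CTH, needs its near-identical copy beside it. The Control libraries held 9 and 12 CBS counts, the WT libraries 11 and 20 and the IDRmut libraries 27 and 36, and CBS was called only in IDRmut, at 1.43 ± 0.33 (adjusted p 0.0029). That call ended without Control replicate 1 (adjusted p 0.058) and by DESeq2 (0.059). A copy annotated elsewhere on chromosome 21, CBSL, shares 91% of its 50-base words with CBS transcripts, and held 6 and 15 counts in the Control libraries, 62 and 99 in the WT libraries and 46 and 44 in the IDRmut libraries. Summed, the pair stood at 0.760 and 1.45 CPM in Control, 3.57 and 3.48 with WT and 3.58 and 3.63 with IDRmut. In a fit of the summed counts, chosen after their values were seen, both arms were above Control, at 1.68 ± 0.23 (adjusted p 2.4e-05) and 1.71 ± 0.24 (3.2e-05), and did not pass the test against each other (-0.04 ± 0.17, adjusted p 0.90). CBS is therefore uncertain as a single gene in these counts.

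Of the 3 mitochondrial one-carbon enzymes, 2 rose in each arm. ALDH1L2, which makes NADPH from formyl-tetrahydrofolate, rose by 0.51 with WT and 0.40 with IDRmut, and MTHFD2, the enzyme before it, by 0.14 and 0.26. The WT call for MTHFD2 ended without Control replicate 1 (adjusted p 0.057), Control replicate 2 (0.11), WT replicate 1 (0.12) or WT replicate 2 (0.057), and 33.2% of its exon bases overlap other genes. SHMT2, which splits serine into glycine and a one-carbon unit, was not called, at 0.08 ± 0.05 and 0.10 ± 0.05, although without IDRmut replicate 2 its IDRmut value of 0.16 was (adjusted p 0.011). The 4 transporters differed among themselves. SLC7A5 and SLC3A2, the light and heavy chains of the large neutral amino acid exchanger, rose together. SLC7A5 (chromosome 16, 87830023 to 87869488, minus strand) went from 189 and 185 CPM in Control to 375 and 386 in WT and 273 and 249 in IDRmut, with no overlap among the 3 groups and rises of 1.02 ± 0.04 (adjusted p 1.1e-11) and 0.48 ± 0.04 (2.8e-07). SLC3A2 rose by 0.78 and 0.47. SLC7A11, the cystine importer that pairs with the same heavy chain, had 99.3 to 104 CPM in Control, 99.0 to 103 in WT and 82.3 to 84.2 in IDRmut. It fell in IDRmut, with a log2 change of -0.29 (adjusted p 0.00013), and was at -0.01 ± 0.04 in WT. SLC7A1, an arginine and lysine transporter, passed in neither arm, at -0.06 ± 0.04 and -0.05 ± 0.04, but was called lower in WT without IDRmut replicate 1 (adjusted p 0.049).

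Of the branch, STC2 had the largest rise in WT and VLDLR the largest in IDRmut. STC2, a secreted glycoprotein (chromosome 5, 173314713 to 173329503, minus strand), was at 2.48 and 2.63 CPM in Control, 9.49 and 8.12 with WT and 6.47 and 6.72 with IDRmut. No group overlapped another, and the rises were 1.76 ± 0.14 (adjusted p 4.5e-08) and 1.37 ± 0.16 (3.6e-06). VLDLR, a lipoprotein receptor (chromosome 9, 2621834 to 2660053, plus strand), stood at 7.70 and 7.46 CPM in Control, 20.8 and 19.6 with WT and 24.6 and 25.4 with IDRmut. Here IDRmut was the highest group, with rises of 1.41 ± 0.09 (adjusted p 1.9e-09) in WT and 1.72 ± 0.09 (2.6e-10) in IDRmut.

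**Figure D2:**
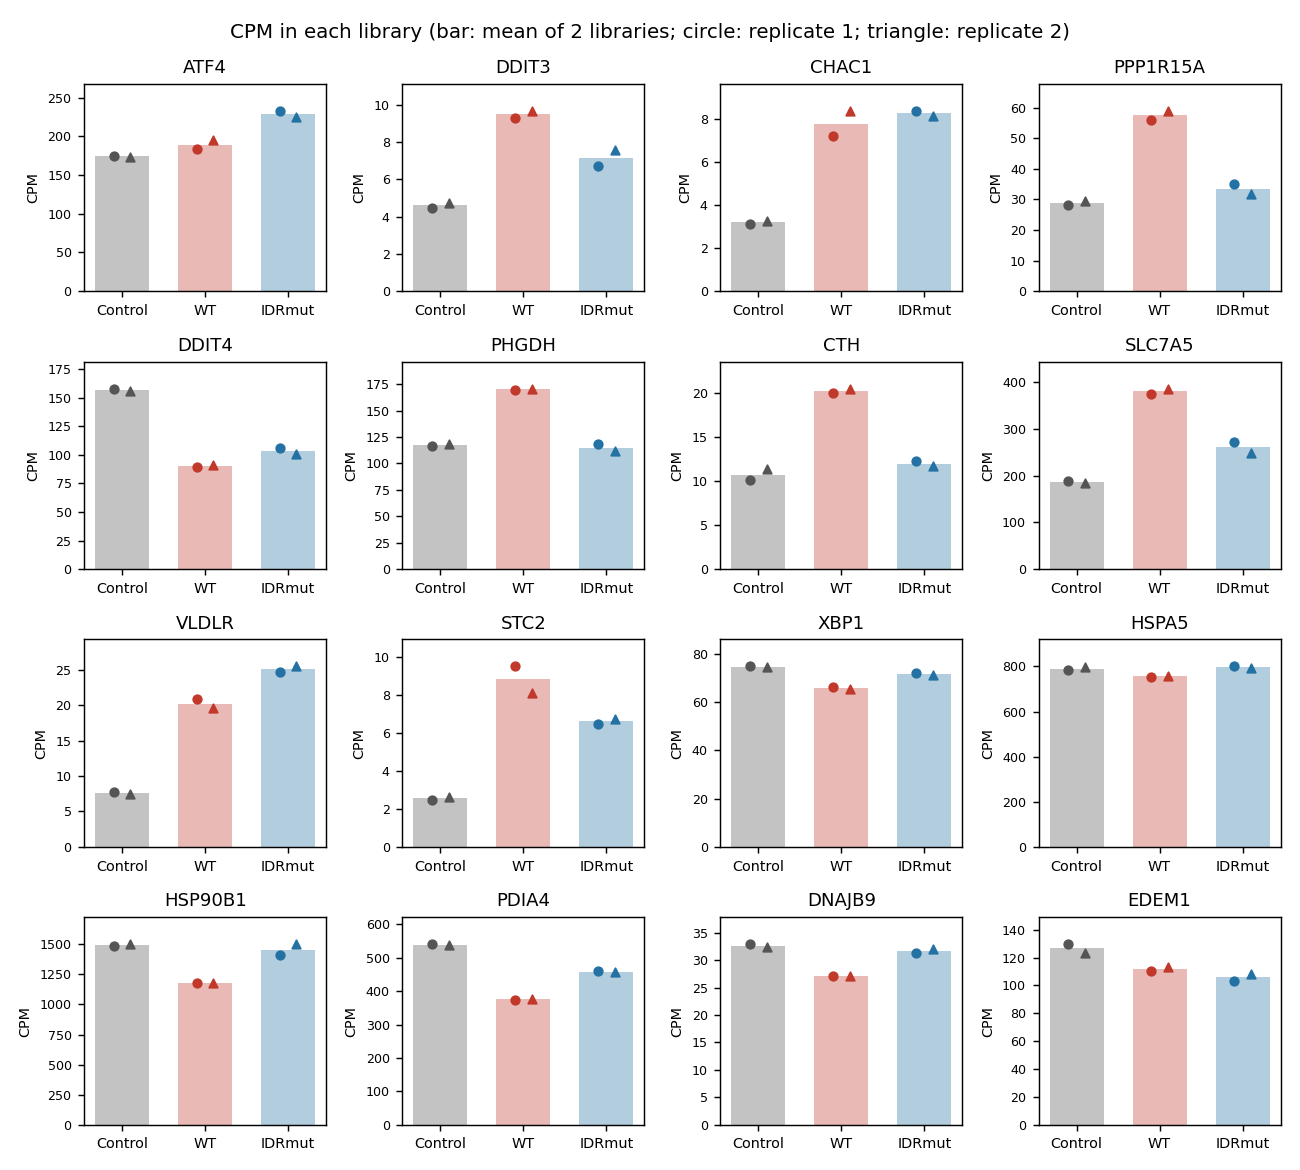
CPM of 16 members in each library (vertical axis from 0; bars are means of 2 libraries, circles replicate 1 and triangles replicate 2; grey Control, red WT, blue IDRmut). PPP1R15A, PHGDH and CTH are high in WT with IDRmut near Control, VLDLR and CHAC1 are raised in both arms, DDIT4 is lowered in both, and HSPA5 lies between 753 and 800 CPM in every library.

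In the ER branch ATF6 and the sentinel chaperone HSPA5 were not called against Control in this fit, and XBP1 was lower in WT. XBP1 (chromosome 22, 28794555 to 28800597, minus strand) was at 74.7 and 74.5 CPM in Control, 66.3 and 65.3 with WT and 71.8 and 71.0 with IDRmut. Both arms lay below Control, and the WT fall of -0.18 ± 0.04 was called (adjusted p 0.0046), though not without WT replicate 2 (0.068). ATF6 (chromosome 1, 161766294 to 161964070, plus strand) overlapped between the groups, with 73.1 and 81.2 CPM in Control, 79.6 and 77.4 with WT and 80.9 and 80.2 with IDRmut. HSPA5 (BiP; chromosome 9, 125234853 to 125241330, minus strand), the chaperone that holds the ER sensors inactive and that ATF6 induces, stood at 785 and 796 CPM in Control, 753 and 760 with WT and 800 and 791 with IDRmut. Its WT libraries were the lowest, at -0.06 ± 0.03 (adjusted p 0.14), and IDRmut overlapped Control at 0.01 ± 0.03 (adjusted p 0.86). The WT value was called lower without IDRmut replicate 1 (adjusted p 0.021), without IDRmut replicate 2 (0.029) and in a fit of WT and Control alone (0.045).

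Some chaperones and folding enzymes were lower in WT. PDIA4, a disulfide isomerase (chromosome 7, 149003062 to 149028641, minus strand), fell from 540 and 538 CPM in Control to 375 and 376 with WT and 459 and 458 with IDRmut. The 3 groups were well apart, at -0.52 ± 0.03 (adjusted p 1.7e-09) and -0.23 ± 0.03 (3.5e-05). HSP90B1 (GRP94), an HSP90 of the ER that folds integrins and Toll-like receptors (chromosome 12, 103930107 to 103953645, plus strand), had 1486 and 1499 CPM in Control, 1180 and 1180 with WT and 1408 and 1499 with IDRmut. It fell in WT by 0.34 on the log2 scale (SE 0.04, adjusted p 7.3e-07), and IDRmut overlapped Control at -0.04 ± 0.04, though without IDRmut replicate 2 it was called at -0.08 (adjusted p 0.020). DNAJB9 (ERdj4), an HSPA5 co-chaperone and XBP1 target (chromosome 7, 108569568 to 108574850, plus strand), was at 32.9 and 32.3 CPM in Control, 27.1 and 27.2 with WT and 31.3 and 31.9 with IDRmut, a WT fall of -0.26 ± 0.06 (adjusted p 0.0026). PDIA6 fell by 0.13 in WT (adjusted p 0.011), and lost its call without Control replicate 2 (0.12), WT replicate 1 (0.077) or WT replicate 2 (0.072) and with upper-quartile scaling (0.056). The calcium-binding chaperone CALR, the nucleotide exchange factor HYOU1 and SDF2L1 were not called, with WT values of -0.07, -0.07 and 0.13 and IDRmut values of -0.02, 0.08 and -0.02. HYOU1 was called higher in IDRmut without IDRmut replicate 2 (adjusted p 0.0093) and with upper-quartile scaling (0.028).

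Of the 4 genes of ER-associated degradation only EDEM1 was called in this fit. EDEM1, which routes misfolded glycoproteins out of the ER (chromosome 3, 5187646 to 5219957, plus strand), stood at 129 and 124 CPM in Control, 111 and 114 with WT and 103 and 108 with IDRmut. Both arms were below Control, at -0.17 ± 0.04 (adjusted p 0.0046) and -0.26 ± 0.04 (0.00024). The WT call ended without Control replicate 1 (adjusted p 0.084) or WT replicate 1 (0.059). HERPUD1 and SEL1L, of the retrotranslocation complex, and its ubiquitin ligase SYVN1 lay between -0.10 and 0.03 in both arms. SEL1L was called lower in WT without IDRmut replicate 1 (adjusted p 0.023) or IDRmut replicate 2 (0.031), as was CALR (0.014 and 0.020). Of the secreted ER proteins, MANF, a neurotrophic factor released on ER stress, fell in WT by 0.17 (adjusted p 0.011; 0.056 without Control replicate 1, 0.086 without Control replicate 2 and 0.11 without WT replicate 1) and was at -0.12 ± 0.05 in IDRmut, where it was called without IDRmut replicate 2 (0.0020). CRELD2 was not called, at -0.10 ± 0.07 and -0.06 ± 0.07. With 1 IDRmut library or the whole IDRmut group left out of the fit, 11 rather than 7 members of the branch were lower in WT, the added genes being HSPA5, CALR, HYOU1 and SEL1L. Without WT replicate 1 the number was 4. In IDRmut 4 rather than 2 members were lower without IDRmut replicate 2, HSP90B1 and MANF being added.

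Genes with a promoter match included called and uncalled members. Of the 5 genes with an ER stress element, XBP1 and HSP90B1 fell in WT and HSPA5, CALR and CRELD2 were not called. Among the 3 with ERSE-II, neither HERPUD1, SDF2L1 nor HYOU1 was called against Control. The 4 ATF4 genes with a C/EBP-ATF element comprised CHAC1 and SLC3A2, which rose in both arms, and ASNS and SLC7A1, which were called in neither. STC2 and VLDLR had no match in this window.

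The direct comparison of WT with IDRmut asks how cells with the 2 forms of ACK1 differ at the ACK1 levels reached here. Members went both ways in the ATF4 branch, with 10 of 24 higher and 5 lower in WT and a median of 0.04, beside 26.5% of all genes called, 14.2% higher and 12.3% lower. In the ATF6 and XBP1 branch 5 of 16 were lower and 0 higher in WT, none higher at an unadjusted p under 0.05 or by DESeq2, with a median of -0.08. The arms did not overlap for 18 of the 24 and 14 of the 16, against 61.5% of all genes. Higher in WT were PPP1R15A (0.78 ± 0.06, adjusted p 4.0e-08), CTH (0.76 ± 0.08, 2.8e-06) and PHGDH (0.57 ± 0.04, 2.2e-08). The transporters SLC7A5, SLC3A2 and SLC7A11 followed at 0.55, 0.31 and 0.28, and DDIT3, STC2, PSPH and PSAT1 at 0.41, 0.40, 0.20 and 0.15. Lower in WT were CBS as a single gene (-1.38 ± 0.30), VLDLR (-0.32 ± 0.07), ATF4 (-0.27 ± 0.04, adjusted p 6.5e-05), DDIT4 (-0.20 ± 0.04) and MTHFD2 (-0.12 ± 0.04). The WT libraries had less ATF4 mRNA than the IDRmut libraries and more of 10 transcripts on its target list. They also had less of VLDLR, DDIT4, MTHFD2 and CBS as a single gene, and 9 members were not called. By DESeq2 7 members were higher and 2 lower.

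In the ER branch the differences between the arms were those of HSP90B1 (-0.30 ± 0.04, adjusted p 5.2e-06), PDIA4 (-0.29 ± 0.03, 5.1e-06), DNAJB9 (-0.22 ± 0.06, 0.012), PDIA6 (-0.15 ± 0.04, 0.0044) and HYOU1 (-0.15 ± 0.04, 0.0051). CHAC1, TRIB3, CEBPB, CEBPG, ALDH1L2 and NUPR1, which rose in both arms, were not called between them. Their differences were -0.06 ± 0.11, 0.18 ± 0.10, -0.18 ± 0.09, -0.02 ± 0.04, 0.10 ± 0.08 and -0.11 ± 0.16. The differences of TRIB3 and CEBPB exceeded their SE and were still not called (adjusted p 0.19 and 0.15). These genes therefore cannot be taken as equal between the arms. CEBPB was called lower in WT without IDRmut replicate 2 (-0.33, adjusted p 0.0025).

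Several of the smaller differences between the arms rested on single libraries. Without WT replicate 1 the calls of PSAT1, PSPH, STC2, MTHFD2, DNAJB9 and HYOU1 ended (adjusted p 0.058, 0.14, 0.15, 0.092, 0.075 and 0.064). Without WT replicate 2 those of DDIT3, PSAT1, PSPH, MTHFD2, VLDLR and DNAJB9 ended (0.094, 0.15, 0.094, 0.21, 0.076 and 0.097). That left 3 of the 5 ER genes lower without WT replicate 1, and 3 of the 5 ATF4 genes lower without WT replicate 2. DESeq2 did not call DDIT3, STC2, PSPH, VLDLR, MTHFD2 or DNAJB9 between the arms (0.12, 0.16, 0.14, 0.050, 0.057 and 0.10). Without IDRmut replicate 1 those of DDIT3, PSAT1 and STC2 ended (0.062, 0.061 at a log2 value of 0.10, and 0.052), and without IDRmut replicate 2 that of MTHFD2 (0.075). SYVN1, HSPA5 and EDEM1 gained a call without IDRmut replicate 2 (0.0072, 0.043 and 0.047, with EDEM1 higher in WT) and SEL1L without IDRmut replicate 1 (0.033). Calls of PPP1R15A, CTH, PHGDH, SLC7A5, SLC3A2, SLC7A11, ATF4, DDIT4, HSP90B1, PDIA4 and PDIA6 held in all 13 alternatives.

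**Figure D3:**
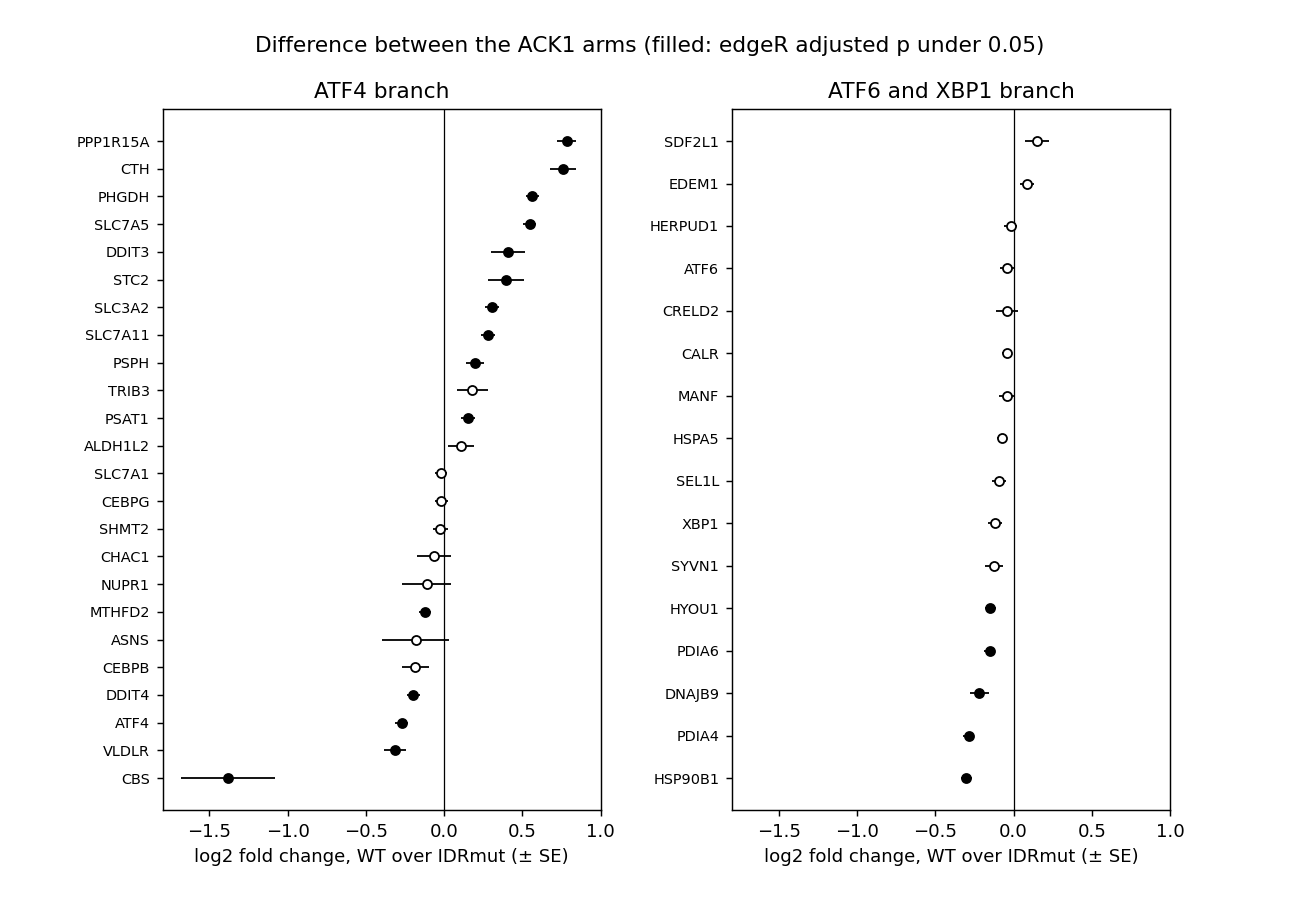
Log2 fold change of WT over IDRmut (horizontal axis, bars are 1 SE) for the 24 ATF4 genes on the left and the 16 ATF6 and XBP1 genes on the right, sorted within each branch. Filled points had an edgeR adjusted p under 0.05: 10 ATF4 genes lie right of 0 and 5 left of it, and the 5 filled ER genes all lie left of it.

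Other genes of the pathways were read in the same fit, in which 17.4% of all genes rose and 17.6% fell in WT, and 15.6% rose and 15.9% fell in IDRmut. They were listed from general knowledge, but with earlier results of these data known, so they are not independent support for the branch results. Of 18 tested among 19 further ATF4 targets, 10 rose and 2 fell in WT and 10 rose and none fell in IDRmut by edgeR (none lower at an unadjusted p under 0.05 or by DESeq2), with medians of 0.17 and 0.20. GPNMB, a membrane glycoprotein of lysosomes, rose by 2.78 and 1.74, and GDF15, a stress cytokine that p53 also induces, by 2.04 and 1.28. SLC6A9, a glycine transporter, rose by 1.24 and 1.03. NIBAN1 rose in WT by 0.54 and was at -0.09 in IDRmut (adjusted p 0.16), a difference of 0.64 between the arms (adjusted p 1.7e-08). VEGFA, the angiogenic factor, fell in WT by 0.28 and rose in IDRmut by 0.38, and the difference of -0.66 between the arms had an adjusted p of 2.5e-08. The other gene lower in WT was ALDH18A1, of proline synthesis, at -0.18. Cytosolic aminoacyl-tRNA synthetases rose in 10 of 20 cases and fell in 1 in WT, and rose in 15 and fell in 2 in IDRmut, with medians of 0.11 and 0.17, beside the same 17.4% and 15.6% of all genes higher. WARS1, which interferon induces as well, rose most, by 1.18 and 0.53, and AARS1 rose by 0.31 and 0.34. QARS1 fell in both arms, by 0.22 and 0.17, and VARS1 in IDRmut, by 0.19. The element TGATGNAA lay in 6 of 16 synthetase promoters with an entry (AARS1, CARS1, IARS1, MARS1, NARS1 and TARS1). Of these 6 genes, 5 rose in WT and all 6 in IDRmut, beside 10 and 15 of all 20. NARS1 was at 0.07 in WT (adjusted p 0.20). EPRS1, GARS1, KARS1 and WARS1 also rose in both arms, with no match in their windows. Among the further ATF4 targets the element lay in 1 of 15 windows, that of the gene not tested. Whether the element goes with the rises was not tested.

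Of 30 further ATF6 and XBP1 targets, 14 fell and 0 rose in WT (none higher at an unadjusted p under 0.05 or by DESeq2), with a median of -0.11, against 17.4% of all genes higher and 17.6% lower. In IDRmut 4 fell and 1 rose, with a median of -0.07, so 16.7% were called, fewer than the 31.6% of all genes. P4HB, a protein disulfide isomerase, fell by 0.32 and 0.20, and CREB3L2, a membrane-bound transcription factor, by 0.45 and 0.52. PDIA3 fell in WT by 0.25 and was at -0.07 in IDRmut. The gene higher in IDRmut was DERL1, of ER-associated degradation, at 0.16. Between the arms 10 were lower and 1 higher in WT, HSPA13 at 0.22, beside 12.3% of all genes lower and 14.2% higher. DESeq2 called 5 of the list lower and 1 higher. Among 14 sensors and eIF2 factors, 3 rose and 3 fell in WT, and 4 rose and 2 fell in IDRmut. In each arm 42.9% were called, near the 35% and 31.6% of all genes. Between the arms 2 of the 14 were higher and 2 lower in WT. The eIF2 kinase EIF2AK2 (PKR), itself an interferon-induced gene, rose by 0.62 and 0.34, and PPP1R15B, the constitutive partner of the eIF2 phosphatase, by 0.30 and 0.40. EIF2AK3 (PERK), the ER-resident kinase, was at -0.01 and 0.02 with adjusted p of 0.95 and 0.84. EIF2AK4 (GCN2), which senses uncharged tRNA, rose in WT by 0.17 and was at -0.11 in IDRmut (adjusted p 0.094), and ERN1 (IRE1) was at -0.16 and -0.17 (adjusted p 0.13 in each).

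**Figure D4:**
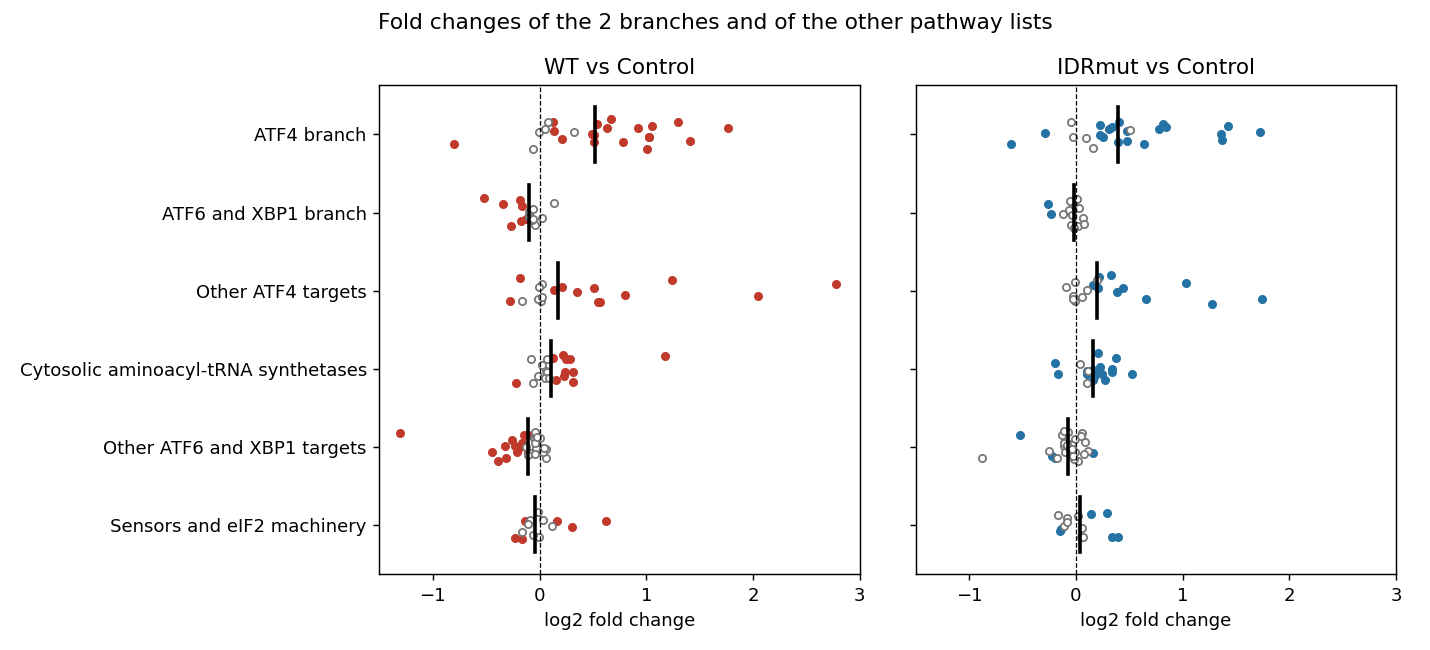
Log2 fold change against Control (horizontal axis) of every tested gene of the 2 branches and of 4 further pathway lists (rows), in WT on the left and IDRmut on the right. Filled points had an edgeR adjusted p under 0.05, thick ticks are list medians and the dashed line is the median of all 16591 genes; the ATF4 medians are 0.52 and 0.40 and those of the ATF6 and XBP1 branch -0.10 and -0.02.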

How the data were processed

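The submitters' processing notes name featureCounts 2.0.1, HISAT2 2.2.1, SAMtools 1.14 and the build GRCh38, and the sources used here do not give the annotation release, the strand setting or the handling of multi-mapping reads. The authors deposited raw counts per gene for the 6 libraries (19128111 to 33540998 counts). Genes were kept by filterByExpr (minimum count 10, minimum total 15), scaled by TMM and fitted as group means over all 6 libraries in edgeR 4.0.16 (R 4.3.3); the quasi-likelihood test was adjusted by Benjamini-Hochberg over 16591 genes and called at an adjusted p under 0.05. The SE is the log2 fold change divided by the square root of F. Positions, exon overlaps and exon lengths come from GENCODE 29 (GRCh38). Every member is reported. Values per library are given for ATF4, DDIT3, XBP1, ATF6, HSPA5 and, per comparison and branch, the 3 called members averaging 5 CPM or more and having the largest change; those of DDIT4, SLC7A5, SLC7A11, CBS and CBSL were chosen after their values were seen. From each further list up to 3 called genes per comparison with the smallest adjusted p are named. ALDH18A1, QARS1, VARS1, DERL1, EIF2AK3, ERN1, NARS1, EPRS1 and KARS1 fall outside that rule and were chosen after their values were seen. Members and lists were chosen with earlier results of these data known. The labels do not say that replicates were separate cultures, so p measures only the spread between these libraries. Counts of replicates varied beyond sampling noise (chi-square per gene 1.70, 1.55 and 3.73 in Control, WT and IDRmut), so each library counted once. The fit was tested on simulated data, drawn with the dispersions of this fit and with 200 genes changed in WT. It recovered 68% of 1.25-fold changes, 84% of 1.5-fold, 98% of 2-fold and 100% of 4-fold changes, so small changes can be missed. Alternatives were other scalings (DESeq2 size factors, upper quartile), no filter, DESeq2 1.42.0, only the groups compared, a replicate block, and each library left out, plus a correction for GC content and length and the sum of CBS with CBSL, both chosen after seeing the data.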

Additional observations from a re-analysis of the deposited data

How the results depend on the processing

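Of 120 member comparisons (40 genes in 3 contrasts), none changed sign with a call under any of the 13 alternatives; DESeq2 size factors, the absent filter and the replicate block changed no member's call. The replicate block left all counts as they were (18 higher and 1 lower, 17 and 2, and 10 and 5 in the ATF4 branch; 7, 2 and 5 lower in the ATF6 and XBP1 branch); replicate numbers did not pair the libraries, as correlations of replicate differences were -0.021, -0.024 and -0.029. The causes of the following shifts were not tested. In the fit of only the 2 groups compared 11 ER genes were lower in WT than in Control. Upper-quartile scaling shifted the median of all genes against Control by about 0.03 and made 1 ER gene, HYOU1, higher in IDRmut than in Control. The GC content and length correction also gave 1 there, and 1 higher (EDEM1) and 9 lower in WT than in IDRmut. DESeq2 left 2 ATF4 genes lower in WT than in IDRmut; it gave no adjusted p for CBS there. Leaving out each library gave, for WT against Control, 15 to 18 higher and 1 to 2 lower in the ATF4 branch and 4 to 11 lower in the ER branch. For IDRmut against Control it gave 14 to 18 and 2 to 2, and 0 to 1 higher and 2 to 4 lower ER genes; for WT against IDRmut 7 to 10 and 3 to 5, and 0 to 1 and 3 to 7. All-gene calls without 1 library ranged from 3976 to 7028, 3451 to 5521 and 2590 to 4761, against 5806, 5236 and 4396; DESeq2 called 3649, 3290 and 2534. Genes under 5 CPM in Control (ASNS, CBS, NUPR1, CHAC1, DDIT3, STC2) carry the largest counting error, and PCR reads are not independent molecules.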
